A study of Homo sapiens with 10 samples.

Results

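The 9 genes described here encode receptors that place B cells within lymphoid tissue: the chemokine receptors CXCR4, CXCR5, CCR7, CCR6 and CXCR3, the oxysterol receptor GPR183, the sphingosine 1-phosphate receptors S1PR1 and S1PR2, and P2RY8. They were chosen by name from what is known of B cell homing, with earlier results of these data known. All 14 probe sets annotated to a single one of these genes were read, of 54675 on the array, and the probe set with the highest mean over the 10 arrays stood for its gene. The study compared resistant and matched cells of HBL2 and JEKO, lines of mantle cell lymphoma, a tumour of mature B cells. BR marks cells labelled as made resistant by bortezomib, a proteasome inhibitor, and PT the matched cells without that label, read here as parental, which the labels do not spell out. RNA came from cultures in logarithmic growth, hybridised to 3 arrays for each HBL2 group and 2 for each JEKO group. Each line has 1 resistant derivative, and the labels say neither whether it is a clone nor whether replicates came from cultures of their own. The p-values therefore reflect no more than the spread between the arrays, which may be technical.

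All members are receptors coupled to G proteins. CXCR4 binds CXCL12 and keeps B cells in bone marrow and in the dark zone of germinal centres, CXCR5 follows CXCL13 into follicles, and CCR7 follows CCL19 and CCL21 towards the T cell zone. GPR183, also called EBI2, senses an oxysterol and moves activated B cells to the outer follicle. S1PR1 draws lymphocytes out into blood and lymph, whereas S1PR2 and P2RY8 signal through G alpha 13 and hold B cells inside the germinal centre. CCR6 binds CCL20 and is found on memory and marginal zone B cells, and CXCR3 binds CXCL9, CXCL10 and CXCL11, which interferon induces.

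Reference sequence upstream of the start site is shown for the 3 genes that changed in a line and have a single listed start site, since these are the stretches from which their messenger RNA is started. RefSeq promoter entries were found for 8 of the 9 members, 5 of them with 1 entry. Each run gives the 250 bases before the start, 5′ to 3′ on the gene's strand (GRCh38.p14), and capitals mark every match to a searched motif on either strand. GPR183 lies at chr13:99307400-99307649 on the minus strand, CXCR5 at chr11:118893142-118893391 on the plus strand and S1PR2 at chr19:10231332-10231581 on the minus strand.
GPR183: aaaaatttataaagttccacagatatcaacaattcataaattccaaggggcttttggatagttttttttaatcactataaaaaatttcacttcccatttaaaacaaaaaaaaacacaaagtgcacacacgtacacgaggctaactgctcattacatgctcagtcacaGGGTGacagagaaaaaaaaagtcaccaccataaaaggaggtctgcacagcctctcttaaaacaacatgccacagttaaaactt
CXCR5: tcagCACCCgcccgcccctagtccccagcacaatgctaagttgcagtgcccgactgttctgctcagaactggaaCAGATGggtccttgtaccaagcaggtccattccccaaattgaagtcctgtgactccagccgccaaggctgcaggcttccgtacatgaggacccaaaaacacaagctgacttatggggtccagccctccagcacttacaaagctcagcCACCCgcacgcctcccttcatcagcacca
S1PR2: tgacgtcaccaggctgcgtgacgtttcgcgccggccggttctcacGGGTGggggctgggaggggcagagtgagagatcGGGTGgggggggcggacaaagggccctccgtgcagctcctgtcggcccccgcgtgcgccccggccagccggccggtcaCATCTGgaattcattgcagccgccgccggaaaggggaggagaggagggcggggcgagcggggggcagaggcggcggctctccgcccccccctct

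The motifs searched were the octamer ATGCAAAT, the FOXO motif TGTTTAC, the KLF motif CACCC, the STAT motif TTCNNNGAA, the E-box CANNTG and an IRF motif of GAAA, any 2 bases and GAAA again. Of 35116 promoter entries cut to the same length, 1.63% held the octamer, 2.98% the FOXO motif, 54.7% the KLF motif, 6.57% the STAT motif, 61.8% the E-box and 3.02% the IRF motif. The GPR183 stretch is poor in G and C (34.4%) and held 1 KLF match, whose first base is at position -83 from the start. The CXCR5 stretch (57.2% G and C) held KLF matches at -246 and -29 and an E-box at -176. The S1PR2 stretch (74.0% G and C) held KLF matches at -205 and -172 and an E-box at -94. No match overlapped one of another motif. The matches are letters in these windows only, and motifs common to most promoters.

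Values are scores as deposited. Every array holds the same set of scores, from 0 to 4.99 with a median of 0.73, so a score gives a probe set's rank on its array, on a scale that looks logarithmic but has no stated base. Changes are therefore differences in score units, and a shift shared by most genes would not be seen. A gene was tested if its probe set reached the array median on at least 2 arrays, which left 14529 genes, and was called changed at a limma adjusted p under 0.05. Arrays correlated at 0.932 to 0.958 within a group and at 0.892 to 0.913 between the lines. The B cell genes MS4A1, CD79A, CD79B and PAX5 and the mantle cell lymphoma genes CCND1 and SOX11 lay above the array median on all 10 arrays, and CD5 on 4. 

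Of the 9 members, 7 passed the filter, CXCR5 on 9 arrays and CXCR4, CCR7, GPR183, S1PR1, S1PR2 and P2RY8 on all 10. CCR6 and CXCR3 did not. The members called were not the same in the lines. In HBL2 BR, GPR183 and CXCR4 were called lower, CXCR4 on its brightest probe set only, and S1PR2 higher. In JEKO BR, CCR7 and CXCR5 were called higher. S1PR2 also read higher in JEKO BR without a call, and the difference between its changes was not called (0.13, adjusted p = 0.46). In HBL2 3 of 7 members were called, against 11.8% of all genes tested (4.91% higher and 6.86% lower). In JEKO 2 of 7 were called, both higher, against 4.28% of all genes (2.56% higher). The median change was -0.12 over the 7 members and -0.00099 over all genes in HBL2, and 0.16 against 0.012 in JEKO.

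**Figure D1:**
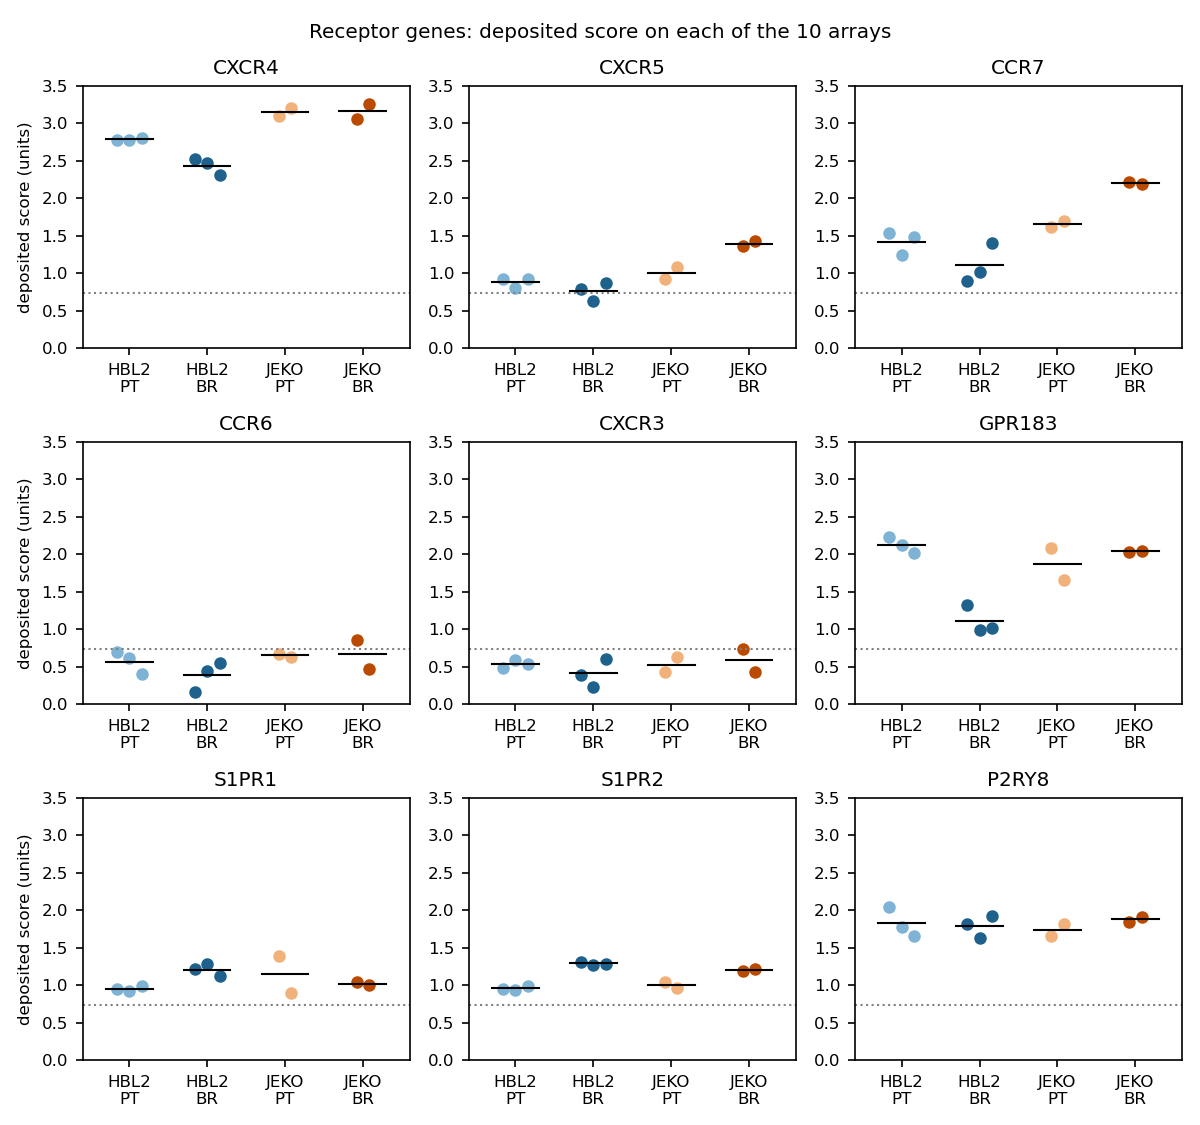
Deposited score (vertical axis, score units) of the main probe set of each receptor gene on each of the 10 arrays. Points are arrays grouped by line and by PT or BR, short lines are group means, and the dotted line is the array median of 0.73. GPR183 is lower on all 3 HBL2 BR arrays (0.98 to 1.32) than on every other array, CCR7 and CXCR5 are highest on both JEKO BR arrays, and CCR6 and CXCR3 stay near or under the dotted line.

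GPR183 showed the largest change of the members. Its scores were 2.23, 2.12 and 2.02 on the HBL2 PT arrays and 1.32, 0.98 and 1.02 on the HBL2 BR arrays, so the groups lay far apart. The change was -1.02 ± 0.10 (SE, limma adjusted p = 4.09e-06), the 39th largest among all genes tested. In JEKO the scores were 2.09 and 1.66 in PT and 2.03 and 2.05 in BR, and both BR arrays lay between the PT arrays. The JEKO change was 0.16 ± 0.13 (adjusted p = 0.56), and it was -0.050 without JEKO PT replicate 2 (adjusted p = 0.91). By mean score the order was HBL2 PT (2.12 ± 0.10, SD, n = 3), JEKO BR (2.04 ± 0.014, n = 2), JEKO PT (1.88 ± 0.30, n = 2) and HBL2 BR (1.105 ± 0.18, n = 3). The arrays of the first 3 groups overlapped with their neighbours in that order, and HBL2 BR stood below them. The HBL2 call held in all 24 alternatives, with changes of -1.12 to -0.96 when single arrays were left out. As these are bulk cultures, fewer cells of a kind and less RNA per cell cannot be told apart.

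CXCR4, the receptor for CXCL12, also fell in HBL2 BR, where only the brightest of its 3 probe sets was called. That probe set read 2.78, 2.78 and 2.80 in HBL2 PT and 2.52, 2.47 and 2.31 in HBL2 BR, with no overlap. The change was -0.35 ± 0.068 (adjusted p = 0.0023). In JEKO PT it read 3.10 and 3.21 and in JEKO BR 3.06 and 3.27, so the PT arrays lay inside the BR range (0.012 ± 0.083, adjusted p = 0.97). The other CXCR4 probe sets overlapped between HBL2 BR and PT. The second read 1.81, 2.10 and 2.24 in PT and 2.05, 2.10 and 1.71 in BR, and the dimmest read 1.85, 1.96 and 2.11 against 1.91, 1.90 and 1.65. When each of the 41091 probe sets with a single gene was tested in its own right, with no filter, their HBL2 changes were -0.096 (adjusted p = 0.77) and -0.15 (adjusted p = 0.38), against -0.35 (adjusted p = 0.0065) for the brightest. On the median over the 3 probe sets CXCR4 was not called in HBL2 (-0.11, adjusted p = 0.62). All 3 probe sets read lower in HBL2 BR than in JEKO BR, with differences of -0.73, -0.55 and -0.58 (adjusted p = 1.21e-05, 0.0063 and 3.19e-04 in that fit).

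**Figure D2:**
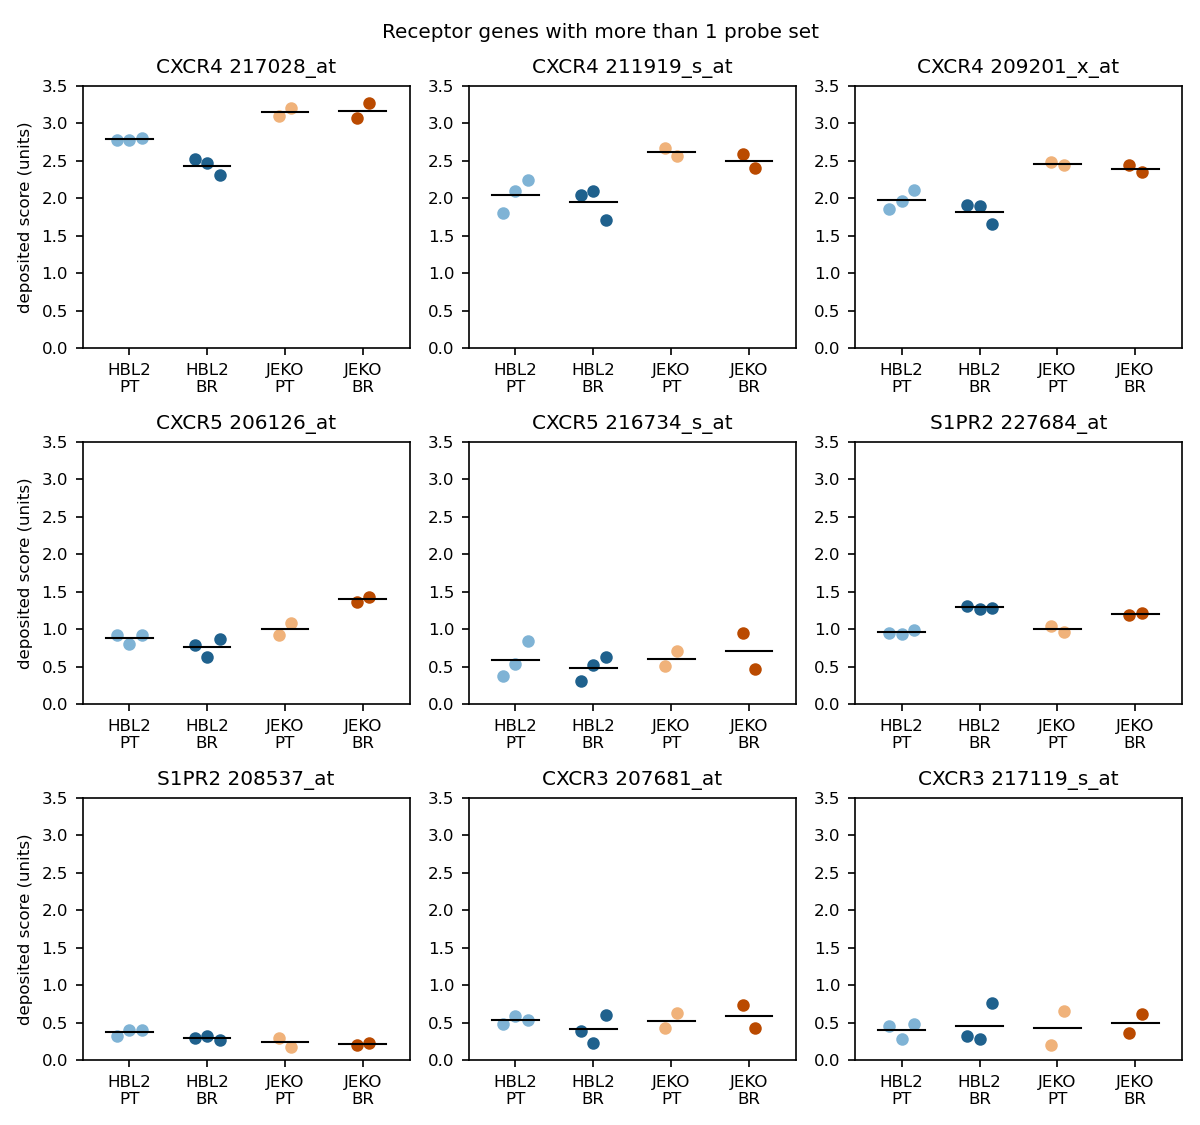
Deposited score (vertical axis, score units) of every probe set of the 4 receptor genes that have more than 1, on each of the 10 arrays, with group means as short lines. On the brightest CXCR4 probe set the 3 HBL2 BR arrays (2.31 to 2.52) lie below the 3 HBL2 PT arrays (2.78 to 2.80), while on the other CXCR4 probe sets these groups overlap.

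CCR7, the receptor for CCL19 and CCL21, rose in JEKO BR. Its scores were 1.61 and 1.70 on the JEKO PT arrays and 2.22 and 2.19 on the JEKO BR arrays, which lay above all 8 other arrays. The change was 0.55 ± 0.13 (adjusted p = 0.024), and 0.902% of genes tested changed by more. In HBL2 CCR7 read 1.54, 1.25 and 1.48 in PT and 0.90, 1.02 and 1.41 in BR. BR replicate 3 lay inside the PT range. Its beta-actin 5′ minus 3′ value, a sign of RNA quality, was the lowest of its group (-1.04). That of HBL2 PT replicate 1, which read 1.54, was lower still (-1.25). A link between this value and the CCR7 score was not tested. The HBL2 change was -0.31 ± 0.105 and missed the threshold (adjusted p = 0.066). It passed without HBL2 BR replicate 3 (-0.46, adjusted p = 0.0024) and without HBL2 PT replicate 2 (-0.40, adjusted p = 0.035). By mean score JEKO BR (2.21 ± 0.016, SD, n = 2) came first, followed by JEKO PT (1.66 ± 0.064, n = 2), HBL2 PT (1.42 ± 0.15, n = 3) and HBL2 BR (1.11 ± 0.27, n = 3), and of these neighbours only the last pair overlapped.

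CXCR5, the receptor for CXCL13, rose in JEKO BR as well. It read 0.92 and 1.09 in JEKO PT and 1.36 and 1.43 in JEKO BR, the highest of all arrays, a change of 0.39 ± 0.096 (adjusted p = 0.031). In HBL2 the scores of 0.92, 0.80 and 0.92 in PT and 0.78, 0.63 and 0.87 in BR overlapped (-0.12 ± 0.079, adjusted p = 0.42). JEKO BR (1.40 ± 0.045, n = 2) stood above the other groups, whose neighbours in the order JEKO PT (1.004 ± 0.12), HBL2 PT (0.88 ± 0.072) and HBL2 BR (0.76 ± 0.12) overlapped. The other CXCR5 probe set reached the array median on 2 arrays only and read 0.51 and 0.70 in JEKO PT and 0.95 and 0.46 in JEKO BR, with overlap. On the median over both probe sets CXCR5 was not called (0.25, adjusted p = 0.29).

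With 2 JEKO arrays a group, the calls of CCR7 and CXCR5 in JEKO were lost when any 1 of these 4 arrays alone was left out. With PT replicate 1, PT replicate 2, BR replicate 1 or BR replicate 2 of JEKO left out, the CCR7 change was 0.50, 0.59, 0.54 and 0.56, with adjusted p of 0.18, 0.087, 0.13 and 0.16. The CXCR5 change was 0.31, 0.47, 0.42 and 0.36, with adjusted p of 0.24, 0.056, 0.10 and 0.24. The change stayed between 0.31 and 0.59 units while neither gene was called. The JEKO groups did not overlap for 4 of the 7 members, all higher in BR, against 50.8% of all genes tested (28.3% higher).

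S1PR2, which restrains migration, rose in HBL2 BR. Its main probe set read 0.95, 0.93 and 0.99 in HBL2 PT and 1.31, 1.27 and 1.29 in HBL2 BR, with BR arrays close together and above every PT array. The change was 0.33 ± 0.060 (adjusted p = 0.0012), and the call held in all 24 alternatives. In JEKO it read 1.05 and 0.96 in PT and 1.19 and 1.21 in BR, also without overlap, but the change of 0.20 ± 0.073 was not called (adjusted p = 0.15). The difference between the lines' changes was 0.13 ± 0.094 (adjusted p = 0.46). HBL2 BR (1.29 ± 0.018, n = 3) and JEKO BR (1.20 ± 0.013, n = 2) were the highest groups and did not overlap, while JEKO PT (1.003 ± 0.061) and HBL2 PT (0.96 ± 0.031) did. The other S1PR2 probe set stayed under the array median on all 10 arrays, with group means of 0.21 to 0.37, and differed by -0.079 between HBL2 BR and PT (adjusted p = 0.81).

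S1PR1, the egress receptor, read 0.95, 0.92 and 0.99 in HBL2 PT and 1.21, 1.29 and 1.12 in HBL2 BR. The groups did not overlap, as was so for 27.3% of genes in HBL2, but the change of 0.25 ± 0.097 was not called (adjusted p = 0.11). Most of the spread of this gene came from JEKO PT, whose arrays read 1.39 and 0.89 around the JEKO BR arrays at 1.04 and 0.999. Without JEKO PT replicate 1 the HBL2 change passed (adjusted p = 0.022), as it did without JEKO PT replicate 2 (adjusted p = 0.019), at the same size of 0.25. The JEKO change of -0.12 ± 0.12 (adjusted p = 0.66) turned to 0.13 without JEKO PT replicate 1 and was -0.37 without JEKO PT replicate 2. In order of mean, HBL2 BR (1.21), JEKO PT (1.14) and JEKO BR (1.02) overlapped with their neighbours, and HBL2 PT (0.95) lay below JEKO BR.

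P2RY8, which shares the G alpha 13 pathway with S1PR2, read 2.04, 1.78 and 1.66 in HBL2 PT, 1.82, 1.63 and 1.92 in HBL2 BR, 1.65 and 1.82 in JEKO PT and 1.84 and 1.92 in JEKO BR. In the order of means, JEKO BR (1.88), HBL2 PT (1.83), HBL2 BR (1.79) and JEKO PT (1.73), each group overlapped with the next, while both JEKO BR arrays lay above both JEKO PT arrays. The changes were -0.035 ± 0.092 in HBL2 (adjusted p = 0.88) and 0.15 ± 0.11 in JEKO (adjusted p = 0.57).

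CCR6 and CXCR3 lay near or under the array median throughout. CCR6 scores were 0.39 to 0.69 in HBL2 PT, 0.16 to 0.55 in HBL2 BR, 0.63 to 0.67 in JEKO PT and 0.47 to 0.86 in JEKO BR. The brighter CXCR3 probe set read 0.48 to 0.59, 0.23 to 0.61, 0.43 to 0.62 and 0.43 to 0.73 in the same groups, and the other CXCR3 probe set 0.20 to 0.76 over all arrays. All neighbouring groups overlapped for both genes, and only JEKO BR replicate 1 lay above the array median for CCR6. Tested without a filter, the CCR6 change was -0.18 in HBL2 (adjusted p = 0.57) and 0.011 in JEKO (adjusted p = 0.99).

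**Figure D3:**
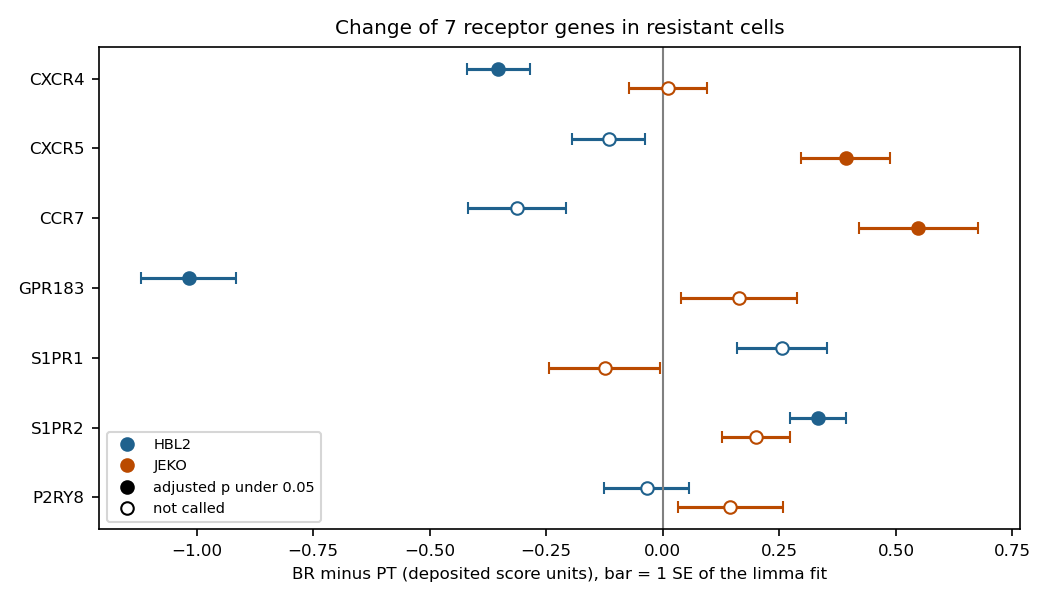
BR minus PT change (horizontal axis, score units) of the 7 tested receptor genes in HBL2 (blue) and JEKO (orange), with bars of 1 standard error from the limma fit. Filled points passed an adjusted p under 0.05. GPR183 (-1.02) and CXCR4 (-0.35) lie to the left in HBL2 and CCR7 (0.55) and CXCR5 (0.39) to the right in JEKO, while S1PR2 lies to the right in both lines and was called in HBL2 only.

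The difference between the lines' changes was tested directly. It was called for 4 of 7 members, against 8.71% of all genes (2.95% higher and 5.76% lower), and in each the HBL2 change was the lower one. The difference was -1.18 ± 0.16 for GPR183 (adjusted p = 2.43e-04), -0.86 ± 0.17 for CCR7 (adjusted p = 0.0038), -0.51 ± 0.12 for CXCR5 (adjusted p = 0.017) and -0.36 ± 0.108 for CXCR4 (adjusted p = 0.046). That of GPR183 held in all 23 alternatives, that of CCR7 in 22 and that of CXCR5 in 17. That of CXCR5 was -0.43 (adjusted p = 0.0998) when JEKO PT replicate 1 was left out and -0.48 (adjusted p = 0.094) when JEKO BR replicate 2 was, and 2 members were then called. That of CXCR4 was at the threshold and was lost in 13 of 23 alternatives and turned to 0.0072 on the median over probe sets, with adjusted p of 0.0304 to 0.27 when single arrays were left out. S1PR1 (0.38), S1PR2 (0.13) and P2RY8 (-0.18) had adjusted p of 0.15, 0.46 and 0.53, and S1PR1 passed without JEKO PT replicate 2 (0.63, adjusted p = 0.0054).

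Between the PT cells of the lines, CXCR4 was the 1 member of 7 that differed, against 23.1% of all genes (9.25% lower in HBL2), and was lower in HBL2 (-0.37 ± 0.076, adjusted p = 0.0022; adjusted p = 0.05 without JEKO PT replicate 2). When 1 JEKO PT array was left out, other members differed too: GPR183 by 0.46 without replicate 1 (adjusted p = 0.019, against 0.25 on all arrays) and S1PR1 by -0.44 without replicate 2 (adjusted p = 0.0051, against -0.19). Between the BR cells 4 of 7 differed, against 28.1% of all genes (14.1% lower in HBL2), and all 4 were lower in HBL2. CCR7 differed by -1.10 ± 0.12 (adjusted p = 3.46e-06), GPR183 by -0.93 ± 0.11 (adjusted p = 1.34e-05), CXCR4 by -0.73 ± 0.076 (adjusted p = 2.66e-06) and CXCR5 by -0.63 ± 0.088 (adjusted p = 5.22e-05). These 4 calls held in all 23 alternatives. The comparisons share arrays with the BR minus PT changes and are the same values seen from another side.

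Some markers of other cells also moved in HBL2. There 2 of 4 tested myeloid genes were called, against 11.8% of all genes tested (4.28% in JEKO). Of T and NK cell genes 0 of 2 were called, and of stromal, endothelial and epithelial genes 1 of 5. The summed score of 9 myeloid markers was 5.28 to 7.09 on HBL2 PT arrays and 3.94 to 4.77 on HBL2 BR arrays, against 5.04 to 5.25 and 5.39 to 5.95 in JEKO PT and BR. Of the 4 tested, TYROBP (-1.30 ± 0.071) and LYZ (-0.59 ± 0.14) fell in HBL2. MPO (-0.022) and CSF1R (-0.0069) were not called there. MPO reached the array median on 7 arrays, while the defining monocyte marker CD14 lay under it on all 10 (at most 0.44). The 9 B cell and mantle cell markers summed to 17.2 to 18.3 in HBL2 PT and 14.8 to 16.4 in HBL2 BR, with BLK, CD79A and CD79B lower, and to 19.3 to 19.8 and 18.7 to 19.2 in JEKO PT and BR, with CD22 called higher in BR (0.35, adjusted p = 0.042). The CD22 call was lost in 13 of 24 alternatives, including the replicate block (adjusted p = 0.0527), leaving out HBL2 BR replicate 1 (0.0528) or replicate 2 (0.057) and leaving out any 1 JEKO array (0.058 to 0.37). That of CD79B (-0.25) ended when PT replicate 1 (adjusted p = 0.057), BR replicate 1 (0.084) or BR replicate 2 (0.086) of HBL2 was left out, and its median over probe sets was -0.105 (adjusted p = 0.30). Of the 10 T and NK cell markers, summing to 4.91 to 5.79 in HBL2 PT, 4.51 to 4.80 in HBL2 BR, 4.88 to 4.95 in JEKO PT and 5.25 to 5.70 in JEKO BR, 2 were tested and 0 called in either line, and 6 (CD2, CD8A, NKG7, KLRD1, GNLY and TRAT1) lay under the array median throughout. CD3E reached the array median on 7 arrays and CD8B on 4, and the change of CD8B differed between the lines (-0.56, adjusted p = 0.045), a call lost in 14 of 21 alternatives. The 9 stromal, endothelial and epithelial markers summed to 5.05 to 6.87 over all arrays, and of the 5 tested PECAM1 fell in both lines (-0.47 and -0.44). The JEKO call of PECAM1 ended when PT replicate 1 (-0.25, adjusted p = 0.29), BR replicate 1 (adjusted p = 0.12) or BR replicate 2 (0.16) of JEKO was left out. Their part in the receptor changes was not tested.

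Ligands of the chemokine receptors were near or under the array median. Of 8 genes 3 were tested, and 0 were called in HBL2 or JEKO, against 11.8% and 4.28% of all genes tested. CXCL12 had group means of 0.55 to 0.73, CXCL10 of 0.50 to 0.64 and CXCL9 of 0.54 to 0.67. CXCL13, CCL19, CCL21, CCL20 and CXCL11 did not reach the array median on 2 arrays.

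Of 15 genes that make, move or break down the ligands of GPR183, the sphingosine 1-phosphate receptors and P2RY8, 8 were tested. The oxysterol genes listed for GPR183, CH25H, CYP7B1, CYP27A1 and HSD3B7, were not among those tested. Of the 8, 1 rose and 1 fell in HBL2, against 4.91% and 6.86% of all genes. SGPP2, a phosphatase that removes the phosphate of sphingosine 1-phosphate, rose in HBL2 BR from 0.61, 0.50 and 0.49 to 1.10, 1.11 and 1.38 (0.66 ± 0.093, adjusted p = 1.42e-04). Its relative SGPP1 fell there, from 1.62, 1.75 and 1.83 to 1.33, 1.41 and 1.17 (-0.43 ± 0.096, adjusted p = 0.0068). Both calls held in every alternative run. The kinase SPHK1, which makes the lipid, had a BR minus PT value of -0.21 in HBL2 (adjusted p = 0.11) and 0.23 in JEKO (adjusted p = 0.21), the transporter SPNS2 by 0.12 and 0.27 (adjusted p = 0.43 and 0.15), and the lyase SGPL1 by 0.024 and -0.062. For PLPP3, ABCC1 and GGT1 the BR minus PT values were within 0.089 units of 0 in both lines. In JEKO 0 of the 8 were called, against 4.28% of all genes. The difference between the lines' changes was called for SGPP2 (0.66, adjusted p = 0.0098) and SPHK1 (-0.44, adjusted p = 0.036). That is 1 higher and 1 lower of the 8, against 2.95% and 5.76% of all genes. The call of this difference was lost in 2 of 22 alternatives for SGPP2 and in 13 of 21 for SPHK1.

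Among 25 other chemokine and leukocyte receptors, 13 were tested. In HBL2 5 fell and 1 rose, against 6.86% and 4.91% of all genes. In JEKO 1 fell and 1 rose, against 1.72% and 2.56%. The median change was -0.15 in HBL2 and 0.028 in JEKO. S1PR4, a sphingosine 1-phosphate receptor of lymphocytes, read 1.48, 1.15 and 1.22 in HBL2 PT and 0.51, 0.48 and 0.68 in HBL2 BR (-0.73 ± 0.088, adjusted p = 3.18e-05). CCR2, a receptor for CCL2, fell by 0.65 ± 0.090 (adjusted p = 1.19e-04), GPR132 by 0.53 ± 0.11 (adjusted p = 0.0031) and GPR18 by 0.49 ± 0.057 (adjusted p = 1.94e-05). In JEKO the values of these 4 were 0.12, 0.028, 0.15 and -0.0050, and for each of them the difference between the lines was called (adjusted p = 0.0012, 0.0067, 0.018 and 0.0028). On percentile ranks GPR132 lost both its HBL2 call (adjusted p = 0.14) and that of the difference (0.084). The GPR132 difference was also lost without the intensity trend (adjusted p = 0.052). Left out, JEKO BR replicate 2 took the difference of CCR2 to an adjusted p of 0.058 (-0.59) and that of GPR132 to 0.087 (-0.66), and JEKO PT replicate 2 took that of GPR132 to 0.093 (-0.59).

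ACKR3 and P2RY10 were the 2 receptors of that list called in both lines. ACKR3, an atypical receptor that scavenges CXCL12, read 0.66, 0.80 and 0.91 in HBL2 PT and 1.24, 1.31 and 1.20 in HBL2 BR, and 0.62 and 0.86 in JEKO PT and 1.07 and 1.33 in JEKO BR. BR arrays were above PT arrays in both lines, with changes of 0.46 ± 0.090 (adjusted p = 0.0025) and 0.46 ± 0.11 (adjusted p = 0.026). The 2 other ACKR3 probe sets gave -0.28 and 0.18 in HBL2 and -0.14 and 0.12 in JEKO. On the median over its probe sets ACKR3 was called in HBL2 (0.32, adjusted p = 0.019) but not in JEKO (0.29, adjusted p = 0.13). On percentile ranks ACKR3 was called in neither line (adjusted p = 0.053 in HBL2 and 0.12 in JEKO). The JEKO change was 0.34 (adjusted p = 0.24) when JEKO PT replicate 1 was left out and 0.33 (adjusted p = 0.32) when JEKO BR replicate 2 was. P2RY10, a relative of P2RY8 that binds lysophosphatidylserine, fell by 0.22 ± 0.056 in HBL2 (adjusted p = 0.018) and by 0.31 ± 0.069 in JEKO (adjusted p = 0.019). Leaving out any 1 JEKO array ended its JEKO call (adjusted p = 0.081 to 0.14), and leaving out PT replicate 2 (adjusted p = 0.066), BR replicate 1 (0.052) or BR replicate 2 (0.104) of HBL2 ended its HBL2 call. On the median over its 3 probe sets P2RY10 was called in neither line, with -0.12 in HBL2 (adjusted p = 0.31) and -0.13 in JEKO (adjusted p = 0.43).

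**Figure D4:**
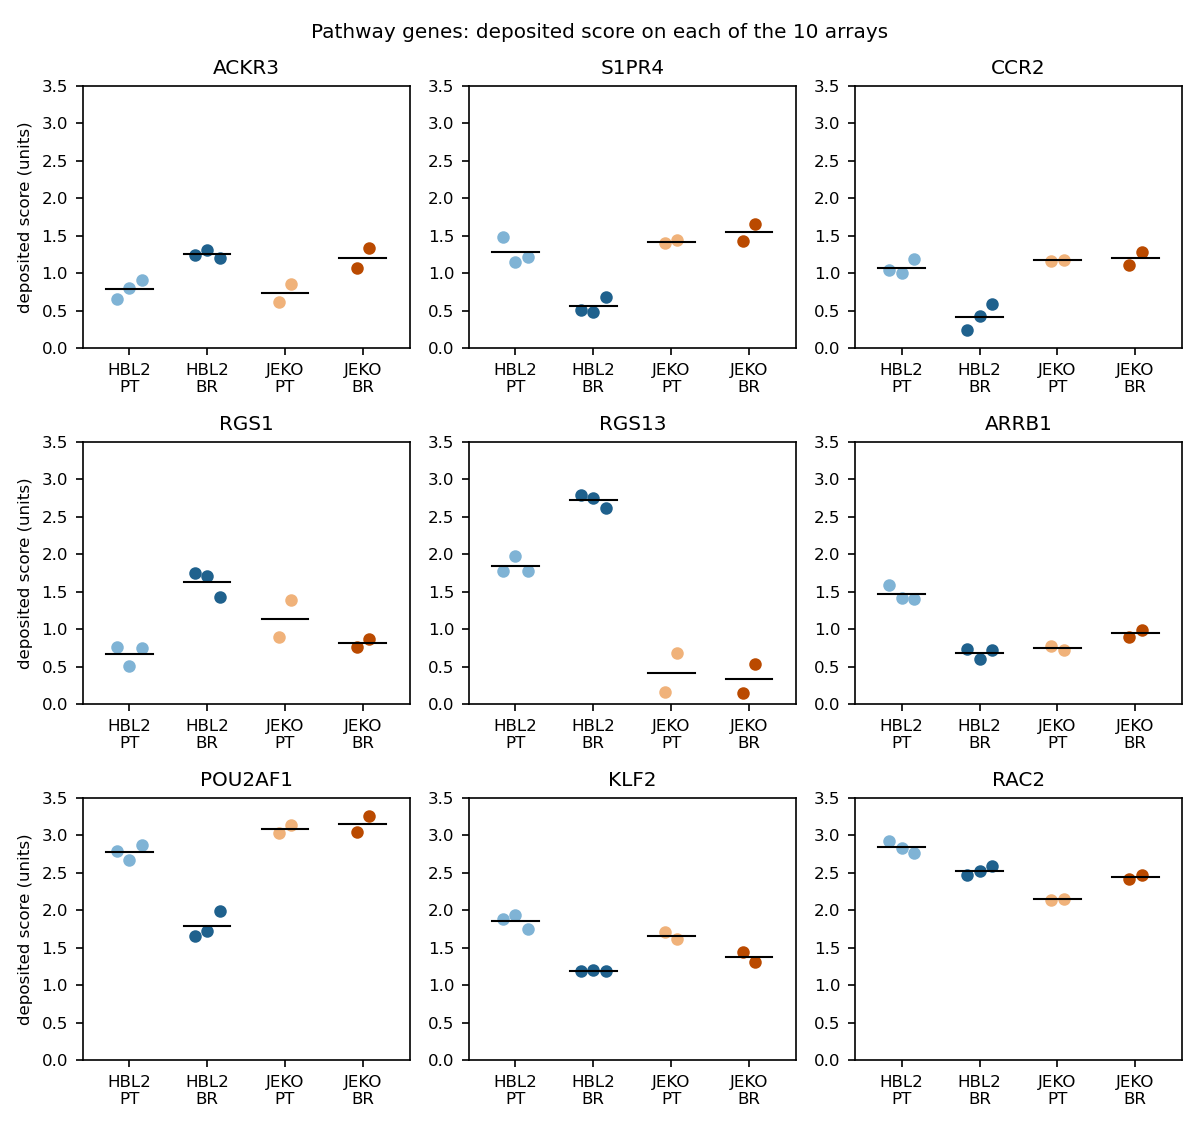
Deposited score (vertical axis, score units) of 9 pathway genes on each of the 10 arrays, with group means as short lines. RGS1 (1.43 to 1.75) and RGS13 (2.62 to 2.79) are high on the 3 HBL2 BR arrays, and S1PR4, CCR2, POU2AF1 and KLF2 are low there. ARRB1 is lower in HBL2 BR than in HBL2 PT, and the JEKO PT arrays (0.78 and 0.72) are about as low. ACKR3 is higher in BR than in PT in both lines.

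Genes that switch receptors off moved both ways in HBL2. Of 15 tested, 3 rose and 3 fell, against 4.91% and 6.86% of all genes, and in JEKO 1 fell, against 1.72% (median change -0.11 and 0.107). RGS1 and RGS13, which speed the inactivation of G proteins behind chemokine receptors, rose by 0.96 ± 0.11 (adjusted p = 2.61e-05) and 0.88 ± 0.12 (adjusted p = 7.35e-05). RGS1 read 0.77, 0.50 and 0.74 in HBL2 PT and 1.75, 1.71 and 1.43 in HBL2 BR. RGS13 read 1.78 to 1.97 in HBL2 PT and 2.62 to 2.79 in HBL2 BR, but 0.14 to 0.68 on the 4 JEKO arrays, and its rise was not called on percentile ranks (adjusted p = 0.77) or normal scores (adjusted p = 0.20). ARRB1, a beta-arrestin that uncouples and internalises receptors, fell by 0.78 ± 0.074 (adjusted p = 2.24e-06), with all 6 of its other probe sets lower by 0.28 to 0.87 units. Its mean was 1.47 in HBL2 PT and 0.69 in HBL2 BR, against 0.75 in JEKO PT and 0.95 in JEKO BR. The receptor kinase GRK3 fell by 0.37 ± 0.064 in HBL2 (adjusted p = 0.0011). RGS10 (-0.22, adjusted p = 0.037) and RGS2 (0.23, adjusted p = 0.033) were near the threshold: leaving out PT replicate 1, PT replicate 2, BR replicate 1 or BR replicate 2 of HBL2 took RGS2 to an adjusted p of 0.099, 0.12, 0.13 and 0.096, and leaving out any of 5 HBL2 arrays took RGS10 to 0.061 to 0.19. RGS2 was the 1 gene called in JEKO, where it fell by 0.39 ± 0.082 (adjusted p = 0.014), and its changes differed between the lines (0.62 ± 0.106, adjusted p = 0.0016). Leaving out any 1 JEKO array ended the RGS2 call in JEKO (adjusted p = 0.051 to 0.13).

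Genes of G proteins and migration signalling fell or did not pass in HBL2: of 20 tested, 5 fell and 0 rose, against 6.86% and 4.91% of all genes (median change -0.063, and 0.0059 in JEKO). PREX1, an exchange factor for RAC proteins, fell by 0.41 ± 0.072 (adjusted p = 0.0011), RASGRP2, which activates RAP1, by 0.31 ± 0.067 (adjusted p = 0.0051), the haematopoietic GTPase RAC2 by 0.31 ± 0.059 (adjusted p = 0.0023) and GNAI2, the inhibitory G protein subunit behind chemokine receptors, by 0.29 ± 0.076 (adjusted p = 0.019). PTK2B, the fifth, fell by 0.28 and is named after its value was seen. The RASGRP2 call rested on an _s_at or _x_at probe set and vanished without these (0.0045, adjusted p = 0.99), and leaving out PT replicate 1 (adjusted p = 0.073), BR replicate 1 (0.053) or BR replicate 2 (0.12) of HBL2 ended that of GNAI2. In JEKO RAC2 alone was called, against 4.28% of all genes, and rose from 2.14 and 2.15 to 2.42 and 2.47 (0.30 ± 0.073, adjusted p = 0.0295), opposite to HBL2 (difference -0.61 ± 0.094, adjusted p = 7.24e-04). Leaving out HBL2 BR replicate 2 (adjusted p = 0.0503) or any 1 JEKO array (0.094 to 0.25) ended that JEKO call, as did the replicate block (0.0502) and the median over both RAC2 probe sets (0.16, adjusted p = 0.21), the other probe set giving 0.017.

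Of 19 tested transcription factors known to act on receptor genes or on B cell stages, 5 fell and 2 rose in HBL2, against 6.86% and 4.91% of all genes, and 0 were called in JEKO, against 4.28% (median change -0.042 and 0.0835). POU2AF1, the octamer coactivator of B cells, read 2.79, 2.67 and 2.87 in HBL2 PT and 1.65, 1.72 and 1.995 in HBL2 BR (-0.99 ± 0.086, adjusted p = 9.05e-07). KLF2, an activator of S1PR1 in lymphocytes, read 1.89, 1.94 and 1.75 against 1.19, 1.20 and 1.19 (-0.66 ± 0.065, adjusted p = 3.34e-06). The other KLF2 probe set, the one left without _x_at and _s_at probe sets, gave -0.081 (adjusted p = 0.75). The other probe set of POU2AF1 gave -0.031. BACH2, a repressor that keeps B cells from becoming plasma cells, fell by 0.56 ± 0.083 (adjusted p = 2.55e-04), and IRF4, a regulator of plasma cell formation, rose by 0.43 ± 0.076 (adjusted p = 0.001). IRF8 (-0.39) and TCF4 (-0.30) were the other falls and PRDM1 (0.38) the other rise, named after their values were seen. On the median over their probe sets TCF4 (-0.12, adjusted p = 0.17) and PRDM1 (0.18, adjusted p = 0.0999) were not called, nor on percentile ranks (adjusted p = 0.25 and 0.0502).

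The genes most like each called member over the 10 arrays were found by the root mean square difference of scores after each gene was centred on its own mean. For GPR183, whose own root mean square was 0.45, they were RNF175 and PCED1B (0.16 each) and WIPF1 (0.162), which encodes a partner of the actin regulator WASP. For CCR7 (own value 0.41) they were the serpin SERPINB9 (0.13), the lymphocyte adaptor LAX1 (0.14) and FGD2 (0.146). For CXCR5 (0.24) they were REPIN1 (0.063), ZNF775 (0.07) and LAPTM5 (0.071), for CXCR4 (0.31) TRO (0.078), SYT17 (0.086) and CBFA2T3 (0.089), and for S1PR2 (0.15) SEC61B, TAMM41 (0.048 each) and DROSHA (0.052). WIPF1 fell by 0.92 in HBL2 and had a value of 0.028 in JEKO, and SERPINB9 fell by 0.43 in HBL2 and rose by 0.51 in JEKO (adjusted p = 5.04e-04 and 0.0027).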

How the data were processed

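Total RNA of 10 samples was labelled with biotin and hybridised to Affymetrix arrays. The submitters' processing notes give MAS5 with no version, and no later step is named in the sources read here. The authors deposited 1 table of scores for 54675 probe sets, and its sorted columns were found to be identical (largest difference 0). Of the probe sets, 41091 had 1 gene symbol in the platform annotation, 1801 several and 11721 none, and 62 were controls. Gene numbers of 41037 matched the RefSeq table, with 0 symbols changed. Probe sets at or above the 50th percentile of their array on at least 2 arrays were kept, and the one with the highest mean stood for its gene.

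Models of 4 group means were fitted to the scores in R 4.3.3 with lmFit, contrasts.fit and eBayes (intensity trend) of limma 3.58.1 over all 10 arrays, with 6 residual and on average 9.89 prior degrees of freedom. Tests were two-sided with Benjamini-Hochberg adjustment over all genes tested. The code was also run on simulated data with independent noise and no difference between the lines. That setting is simpler than the deposited scores, and no result is drawn from it. Values after ± are standard errors beside changes and standard deviations beside means. The planned log2 step, meant for linear values, was not applied. The members, lists and rules were chosen with earlier results of these data known. Named genes were the members, up to 4 called genes with the largest change per list and line, tested genes of the ligand lists, and the 3 genes most like each called member. The number of arrays limits the precision, and no detection calls were used.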

Additional observations from a re-analysis of the deposited data

Results flagged for a closer look

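The BR minus PT changes of 4 receptor genes differed between HBL2 and JEKO by the test of the difference itself (limma interaction term, adjusted over all genes tested). The HBL2 change minus the JEKO change was -1.18 for GPR183 (adjusted p = 2.43e-04), -0.86 for CCR7 (adjusted p = 0.0038), -0.51 for CXCR5 (adjusted p = 0.017) and -0.36 for CXCR4 (adjusted p = 0.046). The GPR183 difference held in all 23 alternatives. The call was lost in 1 of them for CCR7, in 6 for CXCR5 and in 13 for CXCR4, whose direction turned in 1 other. Groups of 2 or 3 arrays are too small for a test of single outlying arrays.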

How the results depend on the processing

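The count of members called moved by more than 1.5 times in these cases. In HBL2 it was 5 with array weights, against 3. In JEKO, against 2, it was 1 without a filter, with the median over probe sets and with the 3 arrays of poorest beta-actin 5′ signal left out (chosen after seeing the data), and 0 with no trend, percentile ranks and normal scores. For the difference between the lines, against 4, it was 2 with the median over probe sets, 1 with percentile ranks, 2 with normal scores and 2 without the 3 arrays. Between PT cells, against 1, it was 2 with array weights, 0 with percentile ranks and 2 without the 3 arrays. Between BR cells it was 4 throughout. In the unfiltered fit of all 41091 probe sets the JEKO count was 0, with CCR7 at an adjusted p of 0.060 and CXCR5 at 0.082. Leaving out single arrays gave 3 to 4 members in HBL2, 0 to 2 in JEKO, 2 to 4 for the difference, 1 to 2 between PT cells and 4 between BR cells, where a lone JEKO array was assumed to vary like the other groups. The causes were not tested.

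Among the members, the direction turned for values that were not called and for the called difference of CXCR4 with the median over its probe sets (difference between the lines 0.0072; JEKO change -0.12). Without the 3 arrays it turned for P2RY8 in HBL2 (0.0053) and between PT cells (-0.014) and for CXCR4 in JEKO (-0.089). When single arrays were left out, values ranged across 0 for P2RY8 in HBL2 (-0.12 to 0.072, and 0.046 without BR replicate 2) and between PT cells (-0.014 to 0.18), for CXCR4 in JEKO (-0.089 to 0.11, and -0.044 without PT replicate 1), for GPR183 in JEKO (-0.050 to 0.38), and for S1PR1 in JEKO (-0.37 to 0.13) and between PT cells (-0.44 to 0.058). Of the other called genes, RASGRP2 in HBL2 turned from -0.31 to 0.0045 and the difference between the lines of TCF3 from -0.39 to 0.15, both without _x_at and _s_at probe sets. The block also ended the JEKO calls of RAC2 (adjusted p = 0.0502) and CD22 (0.0527).

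Whether replicate numbers pair the arrays could not be settled. Deviations of same-numbered PT and BR arrays correlated at 0.017, 0.14 and 0.0075 in HBL2 and 0.078 in JEKO. HBL2 pairs of different number ran from -0.20 to 0.15, the highest being PT replicate 1 with BR replicate 3. With 2 arrays a group, the JEKO values can only be equal and opposite (0.078 and -0.078). With the replicate block 4 members were called in HBL2, CCR7 being added (-0.31, adjusted p = 0.041), 2 in JEKO, 4 for the difference, 1 between PT cells and 4 between BR cells, and all genes called went from 1711 to 1741 in HBL2 and from 622 to 601 in JEKO. Fits of each line alone exist only for the changes within a line.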
